A study of Mus musculus with 14 samples.

Results

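The 8 genes of the neonatal mouse hippocampus described here are Arc, Npas4, Nptx2, Homer1, Inhba, Gadd45b, Ptgs2 and Plk2. They are grouped as Arc, Npas4 and synaptic activity effectors, out of 36118 genes in the deposited table and 16637 genes tested. All 8 passed the filter on low counts. They were selected by name with results of these libraries known, among them the lower levels of Arc, Npas4, Nptx2 and Homer1 in hyperoxia-exposed WT mice. The comparison of WT-O2 with WT-RA is therefore given as a description of the members, and its calls are counted but support nothing. RNA was taken at postnatal day 15 from C57/BL6 mice (C57BL/6N in the study's methods), 1 library per mouse, in 4 groups: room air-exposed wild-type (WT-RA, 4 mice), hyperoxia-exposed wild-type (WT-O2, 4 mice), room air-exposed GSDMD knockout (KO-RA, 3 mice) and hyperoxia-exposed GSDMD knockout (KO-O2, 3 mice). Hyperoxia was 85% O2 from day 1 to day 14. The KO mice are homozygous for CRISPR/Cas9 alleles with a small deletion in a coding exon of Gsdmd, and the study gives the WT mice as their littermates. Both exposures of a genotype carried the same alleles. Nothing says that any of the RNA was pooled, and the sex of the mice is not given in the sources used here.

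When a synapse is strongly driven, calcium enters the neuron and kinases activate CREB, SRF and MEF2, transcription factors that are already in the nucleus. Within minutes they switch on immediate early genes. Some of these encode further transcription factors (Npas4, Fos, Egr1), and others encode proteins that act at the synapse itself and are called effectors. In the hippocampus these genes mark neurons that were recently active and are required for lasting changes in synaptic strength. Among the members, Npas4 is a neuron-specific transcription factor that recruits inhibitory synapses onto active neurons. Arc drives the removal of AMPA-type glutamate receptors from the synapse and forms capsid-like particles. Homer1 is a postsynaptic scaffold that links metabotropic glutamate receptors to internal calcium stores, and its short, activity-induced form, Homer1a, breaks that link. Nptx2 (also called Narp) is a secreted pentraxin that clusters AMPA receptors. Inhba encodes the subunit of activin A, a secreted ligand of the TGF-beta family. Ptgs2 (COX-2) makes prostaglandins, Plk2 is a kinase that weakens overactive synapses, and Gadd45b takes part in stress signalling and in activity-linked DNA demethylation.

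The promoters of the members are shown because CREB, one of the factors above, binds the cyclic AMP response element (CRE) TGACGTCA and its core TGACG. RefSeq sequences of build GRCm38.p6 were matched by symbol for 6 of the 8 genes, with 7 annotated starts. Arc and Nptx2 had no entry. The 250 bases before the start are given 5′ to 3′ along the gene for the 3 genes with a TGACG core on either strand, in lower case with each core in capitals, also where it reads CGTCA. They are Npas4 (chr19:4989972-4990221, minus strand), the more upstream start of Homer1 (chr13:93303507-93303756, plus strand) and Plk2 (chr13:110394794-110395043, plus strand).
Npas4: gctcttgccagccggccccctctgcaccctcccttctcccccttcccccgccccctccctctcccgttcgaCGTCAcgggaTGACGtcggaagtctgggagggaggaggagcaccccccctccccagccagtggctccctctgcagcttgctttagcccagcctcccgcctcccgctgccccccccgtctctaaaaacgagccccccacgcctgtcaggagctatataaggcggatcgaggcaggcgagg
Homer1: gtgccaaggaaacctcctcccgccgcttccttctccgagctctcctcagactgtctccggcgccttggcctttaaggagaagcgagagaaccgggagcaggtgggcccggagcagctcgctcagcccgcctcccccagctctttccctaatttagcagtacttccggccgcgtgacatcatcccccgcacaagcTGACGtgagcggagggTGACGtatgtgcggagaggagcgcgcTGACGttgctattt
Plk2: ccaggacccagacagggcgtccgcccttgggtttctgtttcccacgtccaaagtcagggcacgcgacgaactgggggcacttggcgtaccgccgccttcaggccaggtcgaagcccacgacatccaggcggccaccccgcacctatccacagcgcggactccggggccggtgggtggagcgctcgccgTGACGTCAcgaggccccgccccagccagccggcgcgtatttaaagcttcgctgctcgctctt
Npas4 held 2 cores, 179 and 169 bases before its start, counted to the 5′ base of each match. Homer1 held 3, at 56, 40 and 14 bases, and 0.688% of 32851 promoters of the same length held at least 3. The Plk2 promoter held the full CRE at 62 bases, which contains a core on each strand. Any core was found in 17.8% of all promoters, at least 2 in 3.9% and the full CRE in 1.55%. Plk2 also held 2 copies of the NPAS4 core TCGTG (either strand, in 13.3% of promoters), 1 of which overlaps the CRE. The TATA box TATAAA (12.4%) was matched in Gadd45b and Inhba, and a MEF2 site (2.92%) that overlaps it in Inhba. The SRF site known as the CArG box (1.47%) and the AP-1 site TGANTCA (6.75%) were not matched in the 7 promoters. A match describes the letters of the window and is not evidence of binding.

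The libraries summed to 27272270 to 28257496 estimated counts. Gsdmd was at 1.47 to 2.23 CPM (counts in a library scaled to 1000000 by edgeR's TMM method) in the 8 WT libraries and at 0.817 to 1.5 CPM in the 6 KO libraries, so its transcripts were counted in the KO mice, and sums per gene do not show the deletion. For WT-O2 mouse 4 the title of the record gives hyperoxia and its treatment field room air, and the calls of members and of genes named in the WT hyperoxia comparison are also given with the mouse as room air. The tissue label was checked against markers. The 7 markers of hippocampal excitatory neurons summed to 2012 to 2517 CPM in WT and 2590 to 3243 CPM in KO libraries. The 6 striatal markers summed to 196 to 498 CPM in WT and 48.3 to 138 CPM in KO libraries, the 3 oligodendrocyte markers to 3863 to 15389 CPM and 2588 to 4562 CPM, and the 4 astrocyte markers to 1056 to 1358 CPM and 1441 to 1629 CPM. The 6 thalamic markers summed to 126 to 735 CPM in WT-RA, 262 to 572 CPM in WT-O2 and 169 to 183 CPM in KO libraries. The 3 GABAergic markers summed to 398 to 684 CPM in WT and 413 to 474 CPM in KO libraries. The share of tissue from outside the hippocampus in each library was not tested. None of the markers was at 0 in any library. In 2 KO libraries, KO-RA mouse 1 and KO-O2 mouse 2, the 3 choroid plexus markers summed to 35.9 and 103 CPM, against 911 to 3365 CPM in the other 12. No sequencing batch is named, but WT and KO mice carry separate ranges of identifiers, so genotype and any batch that follows them cannot be told apart. Among WT mice the room air and hyperoxia groups also carry separate ranges, so the same holds for hyperoxia in WT mice. Among KO mice the ranges of the exposures overlap. In whole tissue, fewer cells of a type and less RNA per cell cannot be told apart either.

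In WT mice, Arc and Npas4 were the members with the largest differences between hyperoxia and room air. Arc (ENSMUSG00000022602) was at 96.2, 122, 87.1 and 85.7 CPM in the 4 WT-RA mice and at 34.0, 43.4, 50.5 and 45.0 CPM in the 4 WT-O2 mice. Every WT-O2 mouse was below every WT-RA mouse, and the fitted log2 fold change was -1.18 ± 0.15 (SE), a 2.26-fold lower level. Npas4 (ENSMUSG00000045903) was at 17.8, 21.1, 26.8 and 20.1 CPM in WT-RA and at 7.84, 13.4, 7.90 and 7.64 CPM in WT-O2. The groups again did not overlap, although WT-O2 mouse 2 stood well above the other three, and the log2 fold change was -1.22 ± 0.22 (2.34-fold lower).

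The synaptic scaffold and the secreted members were lower in WT-O2 by a smaller margin, with overlap. Homer1 (ENSMUSG00000007617), whose counts sum the short and long forms, was at 82.8, 119.7, 125 and 118 CPM in WT-RA and at 96.2, 89.1, 79.8 and 71.7 CPM in WT-O2, with a log2 fold change of -0.40 ± 0.12. WT-RA mouse 1 lay within the range of the WT-O2 mice, and the other three WT-RA mice lay above it. Nptx2 (ENSMUSG00000059991) was at 52.0, 62.4, 69.9 and 45.2 CPM in WT-RA and at 34.6, 45.7, 42.7 and 40.8 CPM in WT-O2 (log2 fold change -0.49 ± 0.13), and the groups met at a single pair of mice. Inhba (ENSMUSG00000041324) ranged from 5.20 to 6.80 CPM in WT-RA and from 3.09 to 5.50 CPM in WT-O2, for a log2 fold change of -0.49 ± 0.16.

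The enzymes and Gadd45b differed least between the WT groups. Ptgs2 (ENSMUSG00000032487) had a log2 fold change of -0.20 ± 0.17, Gadd45b (ENSMUSG00000015312) of -0.15 ± 0.14 and Plk2 (ENSMUSG00000021701) of -0.06 ± 0.09. The intervals of these 3 include no difference, and for Plk2 the 95% interval ran from -0.26 to 0.13, which leaves out a log2 fold change of 0.32 in either direction. All 8 fitted values were negative, with a median of -0.44 against -0.01 over all genes tested.

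The rule for a call follows the study's thresholds: a log2 fold change of 0.32 or more in size, a p below 0.05 in the two-sided quasi-likelihood F-test of edgeR, and a Benjamini-Hochberg adjusted p (q, over 16637 genes) below 0.1. By that rule 2 of the 8 members, Arc and Npas4, were called lower in WT-O2 and none higher, beside 0.295% of all genes called lower and 0.349% called higher. The same 2 were lower without overlap, as were 3.04% of all genes. Since this comparison selected the genes, nothing is read from these counts. Npas4 lost its call without WT-RA mouse 2 (log2 fold change -1.23) or WT-O2 mouse 1 (-1.16), and the call of Homer1 was gained without WT-RA mouse 1 (-0.52) and of Nptx2 without WT-RA mouse 4 (-0.59). With WT-O2 mouse 4 as room air neither Arc (-1.03) nor Npas4 (-0.95) was called.

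**Figure D1:**
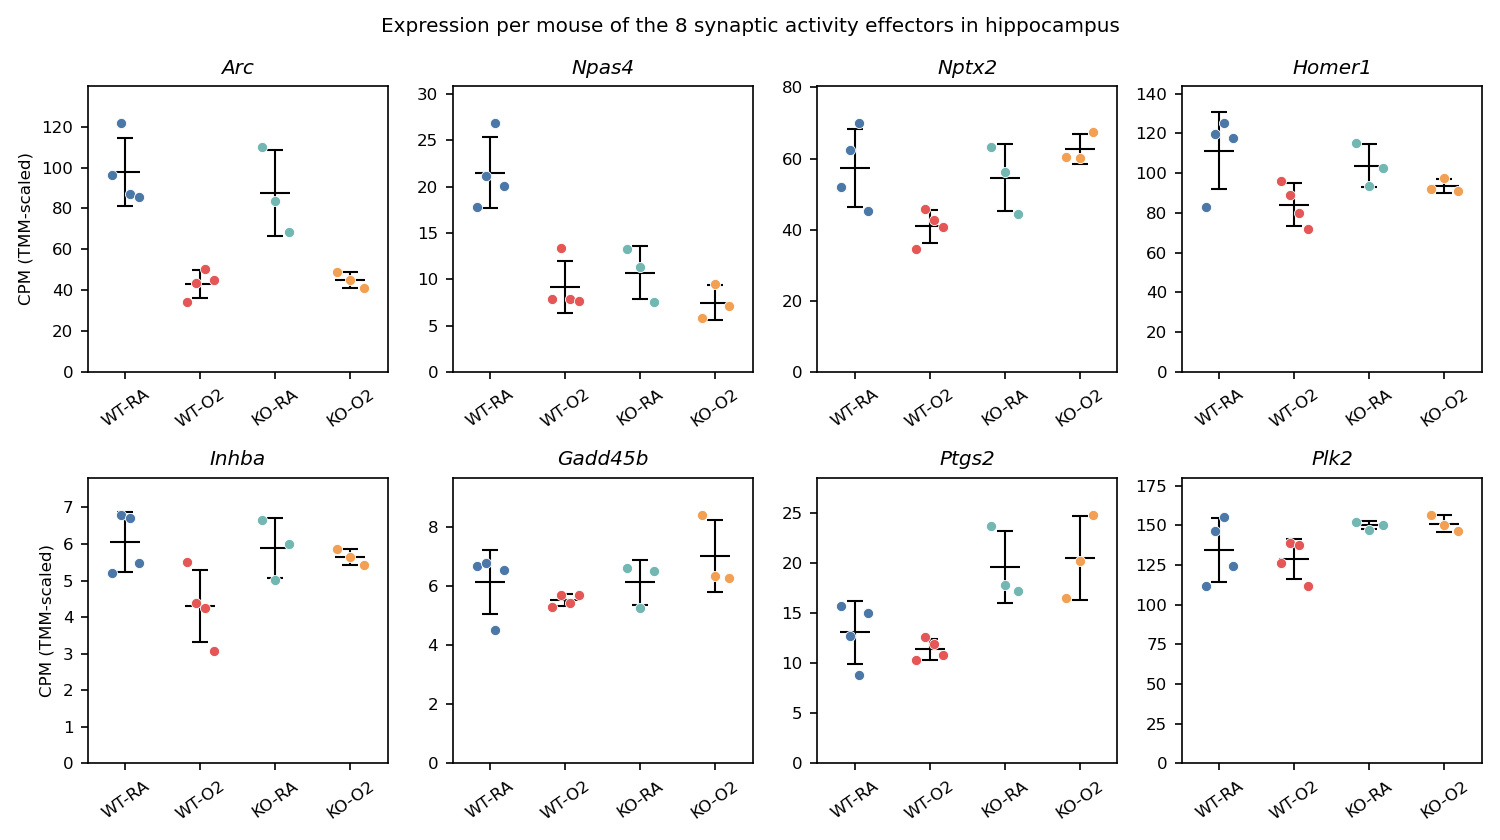
CPM of each member in each of the 14 mice (points), with the group mean (horizontal mark) and SD (whiskers), on axes that start at 0. Arc was lower in every O2 mouse than in every RA mouse of its genotype, whereas Nptx2 was highest in KO-O2 and Ptgs2 was higher in the KO groups than in the WT groups.

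The comparison of KO-O2 with KO-RA asks whether the members also differed with hyperoxia when Gsdmd was deleted. Its fold changes compare other mice than the WT comparison, but the spread behind its SE and p was estimated from all 14 libraries. Results of the KO mice were known too when the genes were chosen, so its tests are not independent evidence. Arc showed the largest difference there as well. It was at 110.1, 83.6 and 68.4 CPM in the 3 KO-RA mice and at 49.0, 44.8 and 41 CPM in the 3 KO-O2 mice. The groups did not overlap, and the log2 fold change was -0.96 ± 0.17 (95% interval -1.33 to -0.59; 1.94-fold lower). The unadjusted p was 6.48e-05 in edgeR's fit of all 14 libraries, but the adjusted p of 0.186 missed the threshold. DESeq2 (adjusted p 0.00013), edgeR without the filter on low counts (0.0236) and the fit without KO-RA mouse 3 (log2 fold change -1.11, 0.0959) each called Arc lower.

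Npas4 ranged from 7.58 to 13.2 CPM in KO-RA and from 5.76 to 9.5 CPM in KO-O2. The groups overlapped, and the log2 fold change of -0.52 ± 0.25 was not called (edgeR adjusted p 0.997; 95% interval -1.06 to 0.02). Nptx2 was at 63.2, 56.3 and 44.5 CPM in KO-RA and at 60.4, 60.3 and 67.5 CPM in KO-O2, with a log2 fold change of 0.20 ± 0.15 that was not called and an interval from -0.13 to 0.52. Homer1 had a log2 fold change of -0.15 ± 0.14 in KO mice, Inhba of -0.06 ± 0.18, Ptgs2 of 0.07 ± 0.19, Gadd45b of 0.20 ± 0.16 and Plk2 of 0.01 ± 0.11. The intervals of these 5 all include no difference. For Plk2 the interval ran from -0.22 to 0.24, whereas that of Gadd45b (-0.15 to 0.54) still holds log2 fold changes above 0.32.

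None of the 8 members was called in KO mice by edgeR, and the unadjusted p was below 0.05 for 1 of them, Arc. DESeq2 called 1 member, beside 13 of the 16637 genes. Over all genes, 0.00601% passed as lower in KO-O2 in edgeR's fit and 0.00601% as higher, which is 1 gene each. The lower 1 is Fos, described with the related genes below. Arc was also the 1 member lower without overlap, beside 6.23% of all genes. The fitted values of the members were negative for 4 and positive for 4, with a median of -0.02 against 0.00 over all genes.

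**Figure D2:**
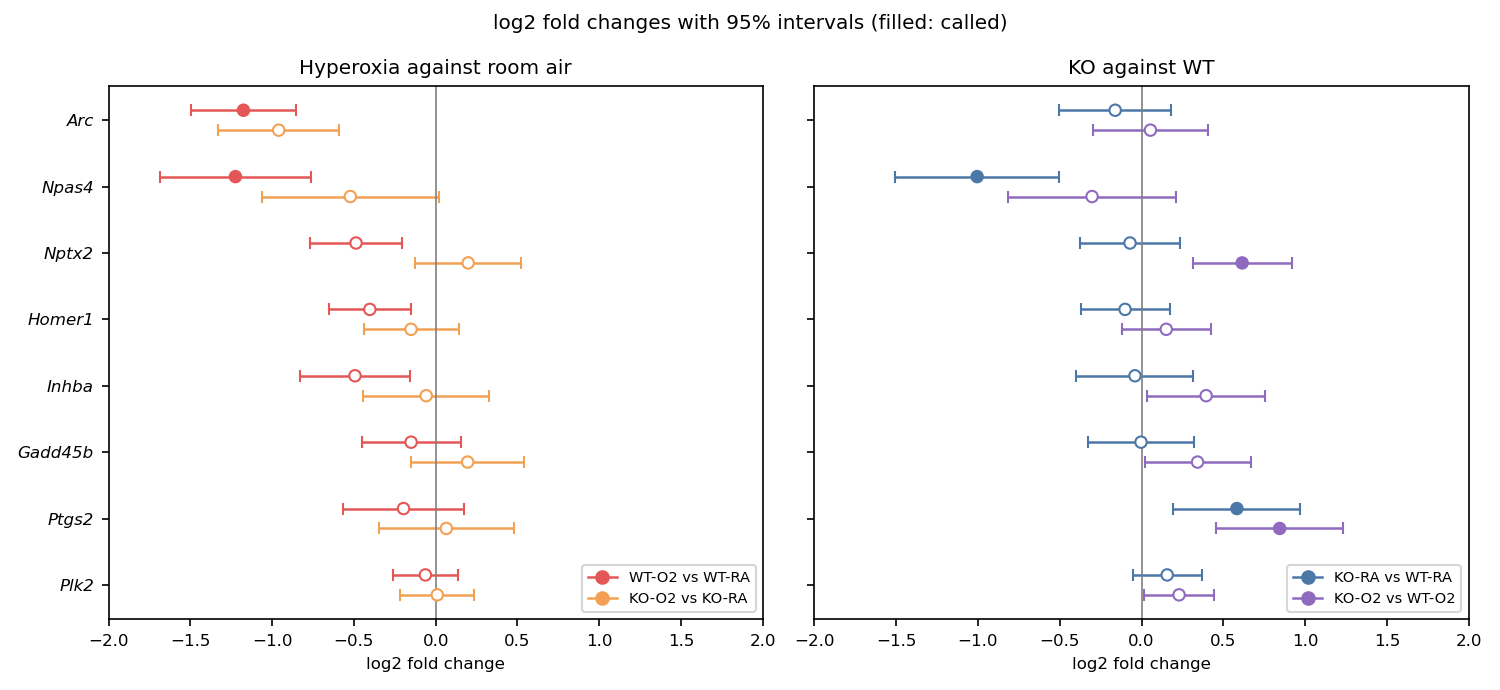
log2 fold changes (points) with 95% intervals (whiskers) of the 8 members, for hyperoxia against room air in each genotype (left) and for KO against WT in each exposure (right). Filled points passed the rule for a call. Arc lies near -1 in both genotypes. Nptx2 and Ptgs2 are called higher in KO-O2 against WT-O2, which shares the WT-O2 mice in which Nptx2 was known to be low.

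The comparisons of KO with WT mice ask whether the deletion itself changed the members. They share the WT-RA or the WT-O2 mice with the comparison that selected the genes, so a member chosen for being high in WT-RA or low in WT-O2 is favoured in 1 direction. In room air, Npas4 was 2.01-fold below WT-RA in KO-RA mice. Its KO-RA mice, at 13.2, 11.3 and 7.58 CPM, all lay below the WT-RA mice, and the log2 fold change was -1.005 ± 0.234 (edgeR adjusted p 0.0137). Npas4 was known to be higher in WT-RA than in WT-O2 when the genes were chosen, so this direction was favoured. It lost the call with WT-O2 mouse 4 as room air (-0.81, adjusted p 0.13). In hyperoxia the same difference was -0.30 ± 0.24 and was not called (95% interval -0.82 to 0.21), so that Npas4 was highest in WT-RA and the other three groups overlapped.

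Ptgs2 was higher in KO than in WT mice under both exposures. It was at 15.7, 12.8, 8.80 and 15.0 CPM in WT-RA and at 10.3, 12.6, 11.9 and 10.8 CPM in WT-O2. In KO-RA it was at 23.7, 17.8 and 17.3 CPM, and in KO-O2 at 16.5, 20.2 and 24.8 CPM. Every KO mouse was above every WT mouse. The log2 fold change was 0.58 ± 0.18 in room air (edgeR adjusted p 0.0563) and 0.84 ± 0.18 in hyperoxia (0.0127; 1.80-fold higher). The room air call was lost without KO-RA mouse 1 (0.42, adjusted p 0.25), which is 1 of the 2 mice of low choroid plexus markers, without both of those mice (0.43, adjusted p 0.262) and without WT-RA mouse 2 (0.58, adjusted p 0.107). It was also lost in a fit of the 2 groups alone (0.58, adjusted p 0.122).

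Nptx2 was 1.53-fold above WT-O2 in KO-O2 mice (log2 fold change 0.62 ± 0.14, edgeR adjusted p 0.0191), and the lowest KO-O2 mouse, at 60.3 CPM, was above the highest WT-O2 mouse, at 45.7 CPM. Nptx2 was known to be low in these WT-O2 mice when the genes were chosen, so this direction was favoured and the call supports nothing. Its mean was 40.9 CPM in WT-O2, against 57.4 in WT-RA, 54.7 in KO-RA and 62.7 in KO-O2. In room air its difference was -0.07 ± 0.14, with an interval from -0.37 to 0.23. Inhba (0.40 ± 0.17, adjusted p 0.218), Gadd45b (0.34 ± 0.15, 0.235) and Plk2 (0.23 ± 0.10, 0.222) were not called in KO-O2 against WT-O2 in edgeR's fit. Inhba was called without WT-O2 mouse 1 (0.53, adjusted p 0.0727). Arc was at near equal levels in the genotypes, with differences of -0.16 ± 0.16 in room air (interval -0.50 to 0.18) and 0.05 ± 0.16 in hyperoxia (-0.29 to 0.40). Homer1 differed by -0.10 ± 0.13 and 0.15 ± 0.13. Arc and Homer1 were called in neither comparison.

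In KO-RA against WT-RA, 1 of 8 members was called lower and 1 higher, and the same genes, Npas4 and Ptgs2, did not overlap between the groups. Of all genes, 6.7% were called lower and 3.75% higher, and 11% were lower and 8.62% higher without overlap. In KO-O2 against WT-O2, 2 of 8 members, Nptx2 and Ptgs2, were called higher and none lower, beside 2.51% of all genes called higher and 4.35% lower. Nptx2, Ptgs2, Gadd45b and Plk2 were higher without overlap, 4 of 8, and no member was lower, beside 8.53% and 10.5% of all genes. Because the WT mice of both comparisons also selected the genes, these counts are given as a description. Cell type markers moved with genotype too. Of the 7 hippocampal excitatory markers, 6 were called higher in KO-RA and 4 in KO-O2, and all 3 oligodendrocyte markers were called lower in both comparisons. The summed striatal markers did not overlap between genotypes. The part of these markers in the differences of Npas4, Ptgs2 and Nptx2 was not tested.

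The response to hyperoxia was then set against genotype within the same fit. The difference of the log2 fold changes, KO minus WT, was positive for all 8 members, with a median of 0.30 against 0.00 over all genes. Because it contains the WT comparison that selected the genes, the sign is given as a description. It was largest for Npas4 (0.70 ± 0.33) and Nptx2 (0.69 ± 0.20), and smallest for Plk2 (0.07 ± 0.14) and Arc (0.22 ± 0.23). The interval of Arc ran from -0.27 to 0.70 and that of Nptx2 from 0.26 to 1.12. None of the 8 was called, beside 0% of all genes tested. At an unadjusted p below 0.05 were 673 of the 16637 genes in edgeR and 652 in DESeq2, which also called none.

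The members differed in how much they varied between mice of 1 group. The biological coefficient of variation (BCV), edgeR's estimate of the spread beyond counting error, was 21.2% for Npas4, 16.9% for Ptgs2, 14.9% for Arc, 14.8% for Inhba, 13.6% for Gadd45b, 13.2% for Nptx2, 11.9% for Homer1 and 9.57% for Plk2. Arc, Npas4, Nptx2, Ptgs2 and Homer1 were more variable than 91.7% to 95.6% of genes of a similar level (mean within 0.5 log2 CPM). Plk2 was more variable than 82.2% of such genes, Inhba than 62.6% and Gadd45b than 57.5%. Inhba and Gadd45b had 88.1 to 235 estimated counts in a library, against at least 929 for Arc, Nptx2, Homer1 and Plk2. Counting error, which the BCV leaves out, therefore takes a larger part of the spread of their CPM.

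**Figure D3:**
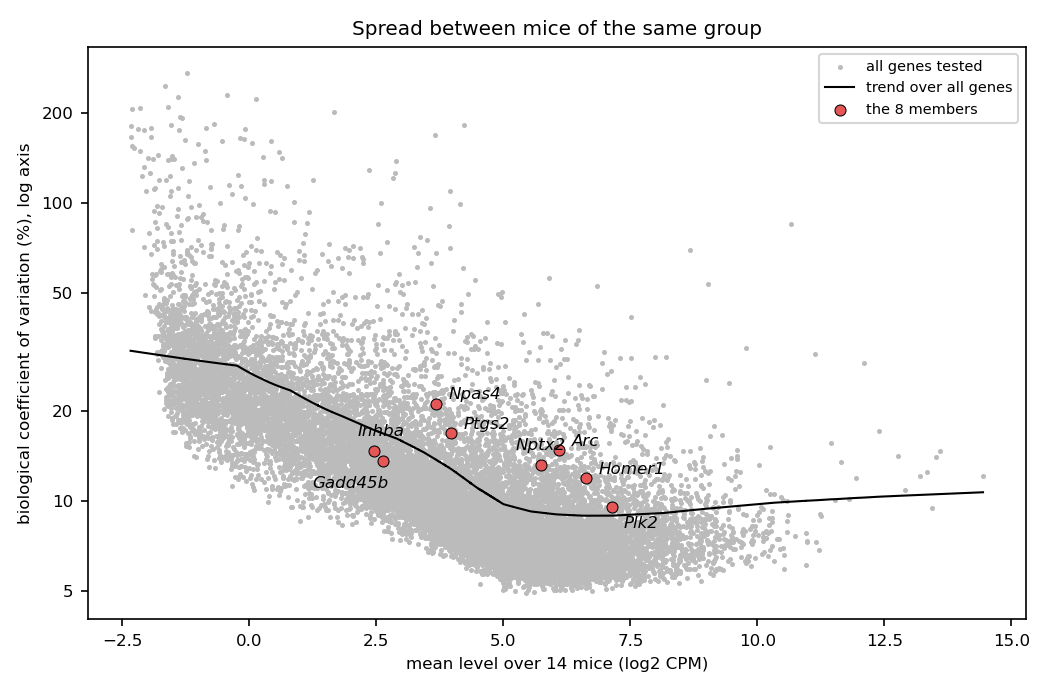
BCV in percent (log axis) against mean level in log2 CPM for all 16637 genes tested (grey), with edgeR's trend (line) and the 8 members (red). Arc, Npas4, Nptx2, Homer1 and Ptgs2 lie above the trend, and Inhba and Gadd45b below it.

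Members that vary within groups can be compared across the 14 mice after the group means are removed. Of the 28 pairs, 17 correlated positively and 6 had an r above 0.5, with a median of 0.19. Between the members and all other genes tested, the median r was -0.006 and the 95th percentile 0.606. Homer1 and Inhba varied together most closely, with a Pearson's r of 0.79 (exact permutation within groups, two-sided p = 0.000289, 0.00809 after Benjamini-Hochberg adjustment over the 28 pairs) and a Spearman's rho of 0.83 (exact permutation p = 0.000965, adjusted 0.027). Without the 2 mice farthest from the median of Homer1, r was 0.77, and it was 0.78 in the 8 WT and 0.90 in the 6 KO mice. No other pair passed an adjusted p of 0.1.

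Npas4 and Nptx2 had an r of 0.64 (exact permutation p = 0.0236, adjusted 0.304; rho 0.64, p = 0.0272, adjusted 0.254). Their r was 0.75 without the 2 farthest mice, 0.63 in WT and 0.68 in KO mice. Homer1 and Plk2 had an r of 0.72 (exact permutation p = 0.0326, adjusted 0.304; rho 0.54, p = 0.108, adjusted 0.448), which was 0.29 without the 2 farthest mice and so rested on those mice. Arc and Npas4, the members with the largest hyperoxia differences in WT mice, had an r of only 0.24 among mice of the same group (exact permutation p = 0.499, adjusted 0.771; rho 0.24, p = 0.495, adjusted 0.719). It was 0.11 without the 2 farthest mice, -0.05 in WT and 0.57 in KO mice. The libraries share a scale, so values in 1 library are not fully independent.

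**Figure D4:**
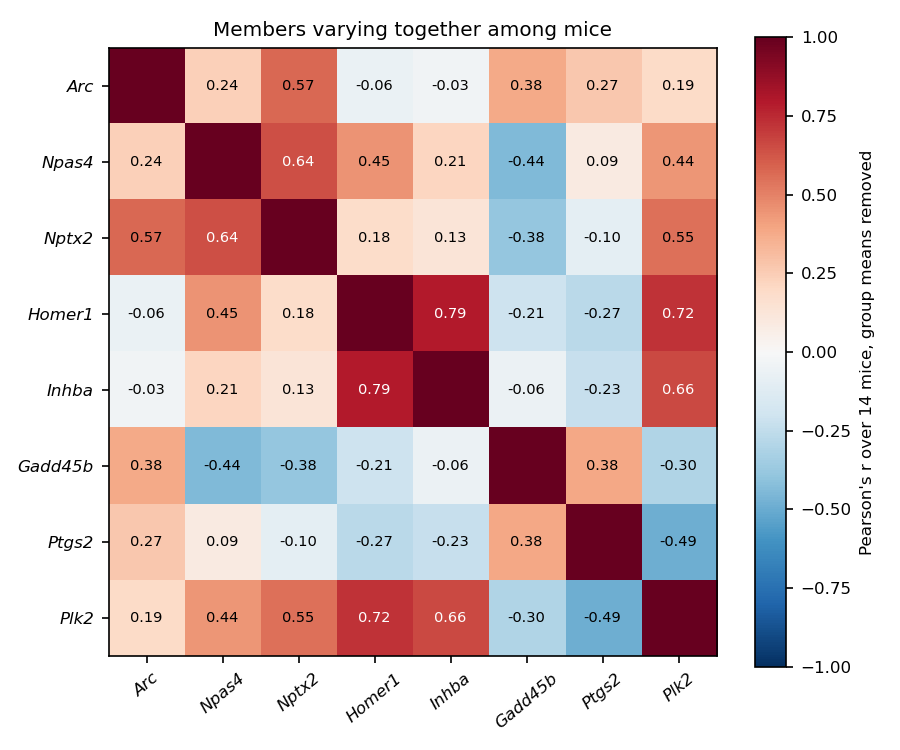
Pearson's r between each pair of members over 14 mice, after the mean of each group was removed (red positive, blue negative). Homer1, Inhba and Plk2 form the block of highest values, led by Homer1 with Inhba at 0.79, and Gadd45b is negative with Npas4 at -0.44.

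The other genes of the pathways were taken from lists of partners and relatives of the members. These lists too were chosen with results of these mice known, so the tests of their genes are not independent evidence. The 16 activity-regulated transcription factors held most of the calls in the hyperoxia comparisons. In WT mice edgeR called 3 of the 16 lower, Fos, Fosb and Egr1, and 1 higher, Maff, and the median log2 fold change was -0.31. Of all genes tested, 0.295% were called lower and 0.349% higher in this comparison. DESeq2 called 8 of the 16 lower and 1 higher in WT mice, beside 137 lower and 173 higher of the 16637 genes. In KO mice DESeq2 called 2 lower, Fos and Fosb, beside 7 lower and 6 higher of the 16637 genes. EdgeR's fit called 1 lower in KO mice, beside 0.00601% of all genes. Fos, the immediate early factor that pairs with Jun proteins, averaged 17.2 ± 1.9 CPM (SD, n = 4) in WT-RA and 8.08 ± 1.37 CPM (n = 4) in WT-O2, with a log2 difference of -1.09 ± 0.12 (edgeR adjusted p 0.00522). In KO mice Fos averaged 11.5 ± 1.30 CPM (n = 3) in KO-RA and 4.91 ± 0.33 CPM (n = 3) in KO-O2 and was called lower (-1.22 ± 0.15, edgeR adjusted p 0.0121). Fosb fell in WT mice (-0.90 ± 0.13, adjusted p 0.0161) and had a KO value of -0.87 ± 0.16 that was not called (0.186). Egr1, a zinc finger factor, fell in WT mice (-0.85 ± 0.14, adjusted p 0.0248) and had a KO value of -0.43 ± 0.16 (0.933). Maff, a small Maf protein, rose in WT mice (1.21 ± 0.23, adjusted p 0.0574). With WT-O2 mouse 4 as room air none of these 4 was called in WT mice, with log2 fold changes of -1.05 for Fos (adjusted p 0.122), -0.83 for Fosb (0.165), -0.67 for Egr1 (0.294) and 0.43 for Maff (0.751). Maff was also lost in the fit of the 2 groups alone, without WT-RA mouse 2 and without WT-O2 mouse 2. The KO call of Fos was lost without the 2 libraries of low choroid plexus markers and with WT-O2 mouse 4 as room air (-1.22, adjusted p 0.59). Maff, and Egr3 and Nr4a3 below, were named after their values were seen.

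The lists of effectors and partners held fewer calls. Of 20 other activity-regulated effectors none was called in either genotype with hyperoxia in edgeR's fit, with medians of 0.02 in WT and -0.01 in KO mice and with 6 and 4 of 20 at an unadjusted p below 0.05, beside 12.2% and 4.86% of all genes. In the same fit none was called in either genotype among 11 partners of Arc, 5 partners and relatives of Npas4, 6 pentraxins and AMPA receptor subunits, 9 Homer relatives and partners, 7 genes of the Gadd45 family and DNA demethylation, 12 of the prostaglandin pathway and 11 polo-like kinases and partners. At an unadjusted p below 0.05 were 0, 2, 2, 2, 1, 1 and 1 of them in WT mice, in that order, and 1 prostaglandin gene in KO mice. DESeq2 called 4 of these genes in WT mice and none in KO mice. Npas2 and Gadd45a were lower, and Npas3, a relative of Npas4, and the effector Ccn1 were higher. Npas3 and Ccn1 are named after their values were seen. Gadd45g is in 2 of the lists. Gadd45a, a relative of Gadd45b, had the smallest p of its list, with -0.54 ± 0.16 in WT mice (edgeR adjusted p 0.187).

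The activin pathway held 1 call with hyperoxia in edgeR's fit, beside 0.349% of all genes called higher in WT mice. Of its 14 genes, Acvr2a, a type II receptor that binds activin, was called higher with hyperoxia in WT mice, at 79.7 ± 9.06 CPM (SD, n = 4) against 55.8 ± 9.89 CPM (n = 4), with a log2 fold change of 0.51 ± 0.12 (edgeR adjusted p 0.0878). The call was lost in 13 of 22 refits, with WT-O2 mouse 4 as room air among them (0.52, adjusted p 0.171), and the value ran from 0.45 to 0.64 over the 22. Inhba, which encodes the ligand subunit, was on the other side of 0 in these mice, as given above. In KO mice Acvr2a had a log2 fold change of 0.01 ± 0.14, and it was lower in KO-O2 against WT-O2 (-0.46 ± 0.13, edgeR adjusted p 0.0489), as were 4.35% of all genes. That comparison shares the WT-O2 mice in which Acvr2a was high, so it adds no support.

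**Figure D5:**
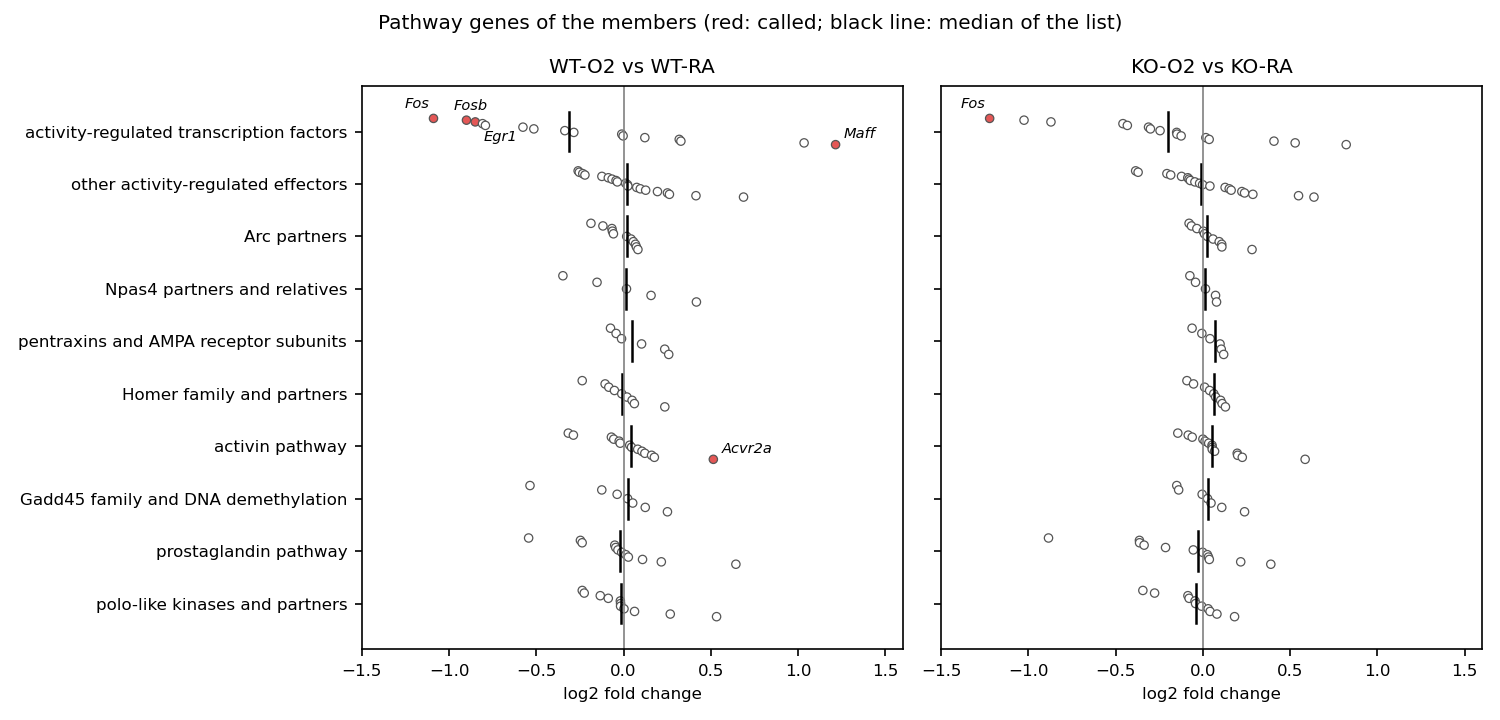
log2 fold changes with hyperoxia of the listed pathway genes in WT (left) and KO mice (right), 1 point per gene, with the list median as a black line. Called genes are red and named; 3 transcription factors are called lower and Maff higher in WT mice and Fos lower in KO mice, and of the other lists Acvr2a is called in WT mice.

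Between genotypes, the lists held more calls, as all genes did. Of all genes tested, 6.7% were called lower and 3.75% higher in KO-RA against WT-RA, and 4.35% and 2.51% in KO-O2 against WT-O2. Of the 16 transcription factors, 2 were lower in KO-RA against WT-RA, Fos and Egr1 (-0.58 ± 0.13 and -0.55 ± 0.15, edgeR adjusted p 0.0117 and 0.028) and 3 were higher, Fosl2, Egr3 and Nr4a3 (0.82 ± 0.13, 0.35 ± 0.10 and 0.63 ± 0.15). In KO-O2 against WT-O2, Fos was lower (-0.72 ± 0.14), and Egr3 (0.39 ± 0.10) and Nr4a3 (0.52 ± 0.15) were higher. Of the 20 other effectors, Bdnf, the neurotrophin that Npas4 is known to induce, was higher in KO mice in both exposures (0.59 ± 0.10 in room air and 0.48 ± 0.11 in hyperoxia), and Rgs2, which dampens G protein signalling, was lower (-0.38 ± 0.10 and -0.54 ± 0.10). Rasgrp1, an activator of Ras, was higher in KO-O2 against WT-O2 (0.40 ± 0.10).

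Of 9 Homer relatives and partners, 3 were called higher in KO-RA and 4 in KO-O2 against WT mice of the same exposure, and none lower. The shares of all genes called higher were 3.75% in KO-RA and 2.51% in KO-O2, and those called lower 6.7% and 4.35%. Of 6 pentraxins and AMPA receptor subunits, 1 was called higher and 1 lower in KO-RA, and 2 and 1 in KO-O2. Of 11 partners of Arc, 1 was called higher and 1 lower in KO-RA, and 2 and 1 in KO-O2. Camk2a, the most abundant subunit of CaM kinase II in the forebrain, was 1.54-fold higher in KO-RA and 1.52-fold higher in KO-O2 than in WT mice of the same exposure. Gria1, an AMPA receptor subunit, was 1.53-fold and 1.399-fold higher, whereas the subunit Gria4 was 1.51-fold and 1.53-fold lower. Homer2 (1.39-fold and 1.35-fold), Homer3 (1.47-fold and 1.59-fold) and the postsynaptic scaffold Dlgap1 (1.29-fold and 1.33-fold) were higher in both comparisons, and Nptx1 (1.27-fold), Camk2b, the subunit that holds Arc at inactive synapses (1.26-fold), and the scaffold Shank1 (1.28-fold) were higher in KO-O2 against WT-O2. Homer1 itself was called in neither. All of these calls had an edgeR adjusted p below 0.1.

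Among the relatives of the other members, Npas2 was lower and Npas1 higher in KO mice in both exposures (log2 fold changes -0.71 ± 0.10 and -0.43 ± 0.10, and 0.49 ± 0.11 and 0.41 ± 0.11). Sh3gl3, an endophilin that binds Arc, was lower in both (-0.66 ± 0.14 and -0.55 ± 0.14). Acvr1, an activin-family receptor, was higher in both (0.33 ± 0.09 and 0.35 ± 0.09), and Smad7, an inhibitor of TGF-beta signalling, was lower in KO-RA (-0.90 ± 0.14). In the prostaglandin pathway, where Ptgs2 was higher in KO mice, Pla2g4a, the phospholipase that releases its substrate, was lower in KO-RA (-1.14 ± 0.26), and Ptger3, a prostaglandin E2 receptor, was lower in both (-0.96 ± 0.21 and -1.06 ± 0.22). Plk3, a relative of Plk2, was lower in both (-0.63 ± 0.12 and -0.36 ± 0.12), and Rap2a, a small GTPase, was lower in KO-RA (-0.33 ± 0.07). Of 54 calls between genotypes among the list genes and the genes most like a member, 28 passed in all 22 refits. The call of Plk3 in KO-O2 against WT-O2 was lost in 14 of them, and 12 calls were lost with WT-O2 mouse 4 as room air, among them Fos in both exposures, Egr1 in room air, and Egr3 and Nr4a3 in hyperoxia. The cell type markers given above moved with these genotype differences too, and their part was not tested.

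The genes whose log2 CPM followed each member most closely over the 14 mice were ranked among 14446 genes with a mean of at least 1 CPM, as a description with no test, since the points share group differences and library scale. Arc was most like Junb (Pearson's r 0.92), Fosb (0.91) and Cebpg (0.88), all of them genes of bZIP transcription factors. Npas4 was most like Egr1 (0.96), Ccnf (0.89) and Numb (0.88). Junb was lower with hyperoxia in each genotype without overlap, with log2 fold changes of -0.34 ± 0.08 and -0.30 ± 0.09 that were not called. Numb fell in WT-O2 against WT-RA (-0.55 ± 0.07, edgeR adjusted p 0.00593) and in KO-RA against WT-RA (-0.51 ± 0.07, 0.000794), the 2 comparisons in which Npas4 was called lower. Because Numb was picked for following Npas4 in these same mice, sharing its calls follows from the choice and supports nothing. With WT-O2 mouse 4 as room air the WT call of Numb was lost (-0.40, adjusted p 0.295).

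Ptgs2 was most like Nfkbiz (0.93), a regulator of NF-kappaB target genes, Lurap1l (0.90) and Cabp7 (0.90). All 3 were called higher in KO than in WT mice under both exposures, although the room air call of Nfkbiz was lost in 16 of 22 refits. They were picked for following Ptgs2, which was higher in every KO mouse than in every WT mouse, so their calls add no support. Homer1 was most like Rasl11b (0.93), Vxn (0.92) and Uap1 (0.89), and Plk2 like Actr3b (0.91), Pex5l (0.91) and Med10 (0.90). Nptx2 was most like Chrm3 (0.85), B4galnt1 (0.85) and Cap2 (0.85). Inhba was most like Ccng2 (0.89), Ndufaf4 (0.88) and Stk17b (0.87), and Gadd45b like Nkain4 (0.84), Rida (0.82) and Gfra1 (0.81). The likest genes depended on the measure. By Spearman's rho, 2 of the 3 were shared for Arc and for Npas4, 1 of 3 for Nptx2, Homer1 and Ptgs2, and 0 of 3 for Inhba, Gadd45b and Plk2. No member was among the 3 likest genes of another by Pearson's r.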

How the data were processed

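Hippocampal RNA of 14 mice was sequenced after polyA selection as 150 bp read pairs. Per gene, the authors deposited estimated counts, made with Kallisto against mouse build GRCm39 (annotation 104) and summed to genes with tximport. Versions, the scaling in tximport and any trimming are not given in the sources used here. In each library 41% to 43.2% of values are fractional. Of 36118 genes, 35825 were given a symbol.

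Samples were grouped by the titles of their records. Estimated counts were rounded and filtered with filterByExpr (16637 genes left). TMM scaling and a quasi-likelihood fit with a coefficient for each of the 4 groups used edgeR 4.0.16 (R 4.3.3). The study used DESeq2, which is an alternative here (1.42.0), with its thresholds of p 0.05 and q 0.1 and a fold whose log2 is 0.32. The 4 pairwise comparisons of groups that share a genotype or an exposure and the interaction were tested, and log2 CPM used a prior count of 2. Errors of log2 fold changes are SE from the quasi-likelihood F statistic. Spread between mice of a group may include technical variation. With 128 to 235 counts for Gadd45b and 88.1 to 193 for Inhba, counting error alone is 6.52% to 10.7% per library, and at most 7.88% for the other members. The fit was also run on simulated counts with known changes, drawn with the spread estimated from these data. Those counts held no batch or labelling problem, so the run cannot speak to either.

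The members and lists were chosen with earlier results of these data known. Genes named besides the members are, for each pathway list, those called in at least 1 pairwise comparison (the 4 of smallest p if more, the 1 of smallest p if none), the 3 genes most like each member, and Gsdmd. A result that this rule names is not reported here. The p-values of the correlations across mice were added to a plan that had none. They come from all 20736 rearrangements of the deviations within groups. Promoters come from RefSeq (GRCm38.p6), a build other than that of the counts, and were used for sequence only. Alternatives were DESeq2, other scalings and filters, the 2 groups alone, stricter thresholds, WT-O2 mouse 4 as room air, each mouse left out, and, chosen after seeing the data, leaving out the 2 KO libraries of low choroid plexus markers. Staining and qRT-PCR were not analysed here.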

Additional observations from a re-analysis of the deposited data

Results flagged for a closer look

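In 18 groups of 4 mice (the 8 members and Gsdmd in WT-RA and WT-O2), the gap between the most extreme mouse and its nearest neighbour was divided by the range of the group and compared with Dixon's 95% critical value. Chance passes this value in about 1 in 20 groups. Npas4 in WT-O2 passed it with a ratio of 0.956, because WT-O2 mouse 2 was at 13.4 CPM and the other three mice were at 7.64 to 7.90 CPM. Gadd45b in WT-RA passed it with a ratio of 0.881, because WT-RA mouse 3 was at 4.52 CPM and the other three were at 6.53 to 6.80 CPM. Groups of 3 KO mice are too small for this check. No member passed the test of the interaction of genotype and hyperoxia (edgeR, adjusted p below 0.1).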

How the results depend on the processing

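Of 874 refitted log2 fold changes of members, 821 kept their direction and their side of the rule for a call, 11 lost a call, 8 gained one and 34 changed sign. Members called in WT-O2 against WT-RA (2) became 4 with DESeq2 (Nptx2 and Homer1 added), 0 with WT-O2 mouse 4 as room air (3 at an unadjusted p below 0.05) and 1 to 3 with a mouse left out. In KO-O2 against KO-RA the count of 0 (1 at an unadjusted p below 0.05) became 1 with DESeq2 and 1 without the filter on low counts, and was 0 to 1 with a mouse left out. In KO-RA against WT-RA the 2 became 1 in the fit of 2 groups, 1 with WT-O2 mouse 4 as room air, 1 at a fold of 1.5, 1 at a q of 0.05, 1 without the 2 KO libraries of low choroid plexus markers, and 1 to 2 with a mouse left out. Over all genes, WT-O2 against WT-RA gave 107 calls, 310 with DESeq2, 20 in the fit of 2 groups, 6 with WT-O2 mouse 4 as room air, 46 at a fold of 1.5, 22 at a q of 0.05 and 13 to 272 with a mouse left out (272 without WT-RA mouse 1, 177 without WT-RA mouse 4, 59 without WT-O2 mouse 3, 64 without KO-RA mouse 2, 33 without WT-O2 mouse 1, 22 without WT-RA mouse 2 and 13 without WT-O2 mouse 2). KO-O2 against KO-RA gave 2 calls, 13 with DESeq2, 6 without the filter, 4 in the fit of 2 groups, 0 with WT-O2 mouse 4 as room air (725 at an unadjusted p below 0.05), 0 without the 2 KO libraries (726 at an unadjusted p below 0.05) and 1 to 4 with a mouse left out. KO-RA against WT-RA gave 1738 calls, 942 at a fold of 1.5, 1059 without the 2 KO libraries and 1076 (without KO-RA mouse 1) to 1929 with a mouse left out, and KO-O2 against WT-O2 gave 1142, 607 at a fold of 1.5 and 675 (without KO-O2 mouse 3) to 1335 with a mouse left out. The signs that changed belong to log2 fold changes that ran from -0.16 (Arc in KO-RA against WT-RA) to 0.07 (Plk2 in the interaction). With WT-O2 mouse 4 as room air, Plk2 was 0.047 in WT-O2 against WT-RA and -0.037 in the interaction, and in KO-RA against WT-RA Arc was 0.0037, Nptx2 0.016, Homer1 0.0059, Inhba 0.11 and Gadd45b 0.017. In KO-RA against WT-RA Gadd45b was also 0.0059 with DESeq2, 0.0060 with its size factors, 0.013 without the filter and 0.00052 with at least 10 counts in every library. Plk2 was -0.00085 in KO-O2 against KO-RA with library size alone. With a mouse left out, Plk2 ran from -0.14 to 0.015 in WT, -0.018 to 0.031 in KO mice and -0.0021 to 0.15 in the interaction. Inhba ran from -0.16 to 0.037 (0.039 without the 2 KO libraries) and Ptgs2 from -0.096 to 0.22 in KO mice. In KO-RA against WT-RA, Gadd45b ran from -0.12 to 0.098, Inhba from -0.14 to 0.066 and Nptx2 from -0.19 to 0.070, and Arc ran from -0.044 to 0.145 in KO-O2 against WT-O2. The cause of these changes was not tested, apart from stricter thresholds, which give fewer calls by construction. List counts were alike with DESeq2 in 34 of 40 comparisons. In WT-O2 against WT-RA, DESeq2 called 9 transcription factors in place of 4, 1 other effector, 2 partners and relatives of Npas4 and 1 Gadd45 family gene in place of 0, in KO-O2 against KO-RA 2 transcription factors in place of 1, and in KO-O2 against WT-O2 3 polo-like kinases and partners in place of 1. Depth limits Inhba and Gadd45b most. No paired analysis was possible because each mouse is in 1 group and the labels link no mice across groups.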
